A study of Mus musculus with 6 samples.

Results

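The vacuolar proton ATPase (V-ATPase) and the proteins that let osteoclasts secrete acid were followed in RNA from mouse femurs. The list holds 31 genes, chosen by symbol: the pump subunits with their paralogs, 2 accessory proteins, and 6 partners in acid secretion. Of the 31, 30 matched 1 of 22824 rows of the deposited tables, and Atp6v1g2 was not analysed here. RNA-seq libraries were made from 6 femur samples, 3 per group. The OE mice carried 9.6kb DMP1-Cre and R26-Wnt7b and were homozygotes. R26-Wnt7b lets Cre switch on Wnt7b, a secreted Wnt ligand, and the DMP1 promoter is active mainly in osteocytes and late osteoblasts. The Ctrl mice were littermates that carried R26-Wnt7b alone. Both groups were C57BL/6, and the labels describe the femurs as cleared of cartilage and marrow. No age is given, and nothing ties the libraries to separate animals, so every p-value measures only the spread between these samples.

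Osteoclasts dissolve bone mineral by pumping protons across their ruffled border. The V-ATPase couples ATP hydrolysis in a cytosolic V1 sector to proton transfer through a membrane V0 sector. Most cells use it to acidify lysosomes and endosomes. Osteoclasts also place it at the cell surface, and they use particular isoforms of the a and d subunits, encoded by Tcirg1 (a3) and Atp6v0d2 (d2). Carbonic anhydrase 2 (Car2) supplies the protons, the anion exchanger AE2 (Slc4a2) removes the bicarbonate left behind, and ClC-7 (Clcn7) with its partner Ostm1 moves chloride. In humans, mutations in TCIRG1, CLCN7, OSTM1, CA2, SNX10 or PLEKHM1 cause osteopetrosis, in which bone is not resorbed.

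Wnt7b, the targeted gene, checks the labels. It was at 2.49, 0.661 and 0.295 FPKM (fragments per kilobase, scaled by mapped fragments) in OE 1, 2 and 3, against 0.909, 0.00833 and 0 FPKM in the libraries labelled Ctrl 1, Ctrl 2 and Ctrl 3. The first of these was inside the OE range, and no difference was detected between the groups by an exact two-sided permutation test (p = 0.3; 3 against 3 libraries cannot go below 0.1). Values of single libraries are given below in the same order, so that the first Ctrl value is always that of the library labelled Ctrl 1. That library also stood with OE in markers of bone, cartilage and muscle. Summed FPKM of 12 osteoblast and osteocyte markers was 3286 to 6227 in OE, against 4969, 452 and 386 in the libraries labelled Ctrl, with Pdpn alone listed at 0 in all 6. For 10 cartilage markers it was 414 to 753 in OE, against 586, 31 and 36.2 in the libraries labelled Ctrl. The neutrophil genes S100a8 and S100a9 took 7.25% to 16.3% of all FPKM, in femurs labelled as cleared of marrow. The share of haemoglobin genes was 7.45% in OE 3, against 0.220% to 1.26% elsewhere. The 30 acid secretion genes together took 0.340% to 0.408%, and results that rest on the library labelled Ctrl 1 are given with and without it.

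With all 6 libraries, no gene of the proton pump or its partners passed the test. Of the 31 genes, 24 reached 1 FPKM in at least 3 libraries and were tested with limma among 12177 genes. At a Benjamini-Hochberg adjusted p under 0.05, 0 of 24 members were called, and 0 of all genes (0%); the smallest adjusted p in that limma fit was 0.554. At an unadjusted p under 0.05, 1 member, Atp6v0d2, was higher in OE and 1, Atp6v0a1, was lower, against 4.12% and 4.08% of all genes. The median log2 difference, OE minus Ctrl, was -0.04 over the 24 members and -0.04 over all genes tested. Both medians were the same to 2 decimals. Over the 6 libraries Car2 and Atp6v0d2 varied most, the SD of their log2(FPKM + 1) being above that of 99.0% and 97.0% of the genes tested.

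Without the library labelled Ctrl 1, Atp6v0d2 alone of the 24 members was called, higher in OE. All genes tested gave 597 calls in that fit (4.90%), 518 of them higher in OE (4.25%) and 79 lower (0.649%), so 1 call among 24 members is near the background. The median member difference was then 0.05, against -0.06 over all genes. Leaving out OE 3 as well, an alternative chosen after seeing the data, gave 2 called members, Atp6v0d2 higher and Car2 lower, against 11.4% of all genes (7.92% higher and 3.48% lower), and a median member difference of 0.25. The library labelled Ctrl 1 was itself singled out because its values stood with OE. Leaving it out favours calls of genes with that pattern, so adjusted p-values without it are descriptive here and below. Leaving out any other single library gave 0 calls.

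**Figure D1:**
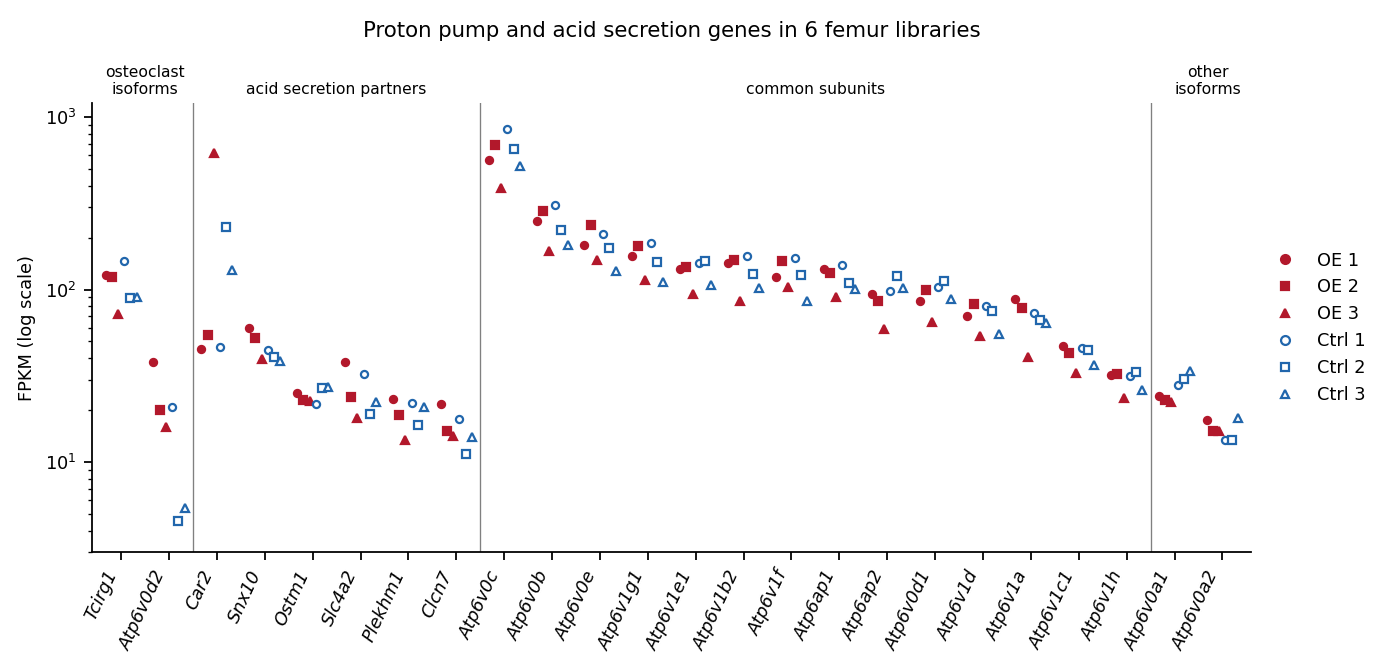
FPKM on a log scale for the 24 tested genes, with 1 point per library (filled red, OE; open blue, Ctrl; circle, square and triangle for replicates 1, 2 and 3). Atp6v0c sits highest in most libraries, and Atp6v0d2 and Car2 spread most, over 8.29-fold and 13.8-fold.

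The d subunit of V0, which links the rotor to the membrane ring, has a widely used form, Atp6v0d1, and the osteoclast form Atp6v0d2. Atp6v0d2 (chr4:19876841-19922605, minus strand, GRCm38) was at 37.9, 20.1 and 15.9 FPKM in OE, against 20.8, 4.57 and 5.42 FPKM in the libraries labelled Ctrl. Ctrl 2 and Ctrl 3 lay below all 3 OE libraries, while the library labelled Ctrl 1 was inside the OE range. The means were 24.6 ± 11.6 FPKM in OE and 10.3 ± 9.13 FPKM in Ctrl (SD, n = 3 each). Its log2(FPKM + 1) difference was 1.39 (SE 0.56; limma, unadjusted p = 0.044, adjusted p = 0.554). Without the library labelled Ctrl 1 the difference was 2.01 (SE 0.35) with an adjusted p of 0.0302 by limma. That call held after scaling by a trimmed mean (2.07, adjusted p = 0.0374, limma) and was lost after rescaling FPKM to TPM (2.13, adjusted p = 0.0577, limma). In the fit without the library labelled Ctrl 1, 7 of 11 osteoblast and osteocyte markers were also called higher in OE. So were 9 of 10 cartilage and 8 of 9 muscle markers, against 4.25% of all genes. Their part in the Atp6v0d2 call was not tested.

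Atp6v0d1 (chr8:105524465-105566047, minus strand) had no such pattern. It was at 86.2, 98.8 and 64.9 FPKM in OE, against 103, 112 and 87.9 FPKM in the libraries labelled Ctrl. The groups overlapped, and the log2 difference was -0.29 (SE 0.20; limma adjusted p = 0.604). The share of Atp6v0d2 in the d subunit transcripts was 30.5%, 16.9% and 19.7% in OE, against 16.8%, 3.92% and 5.81% in the libraries labelled Ctrl. The lowest OE share lay just above that of the library labelled Ctrl 1, so the groups did not overlap but were separated by a narrow margin. The log2 ratio of Atp6v0d2 to Atp6v0d1 was 1.67 higher in OE (SE 0.70) in an exact two-sided permutation test (p = 0.1, the smallest that 3 against 3 libraries allow; adjusted p = 0.3 over the 6 ratios tested of 11 listed). Without the library labelled Ctrl 1 it was 2.28 higher, again at the smallest p that an exact permutation allows (p = 0.1).

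**Figure D2:**
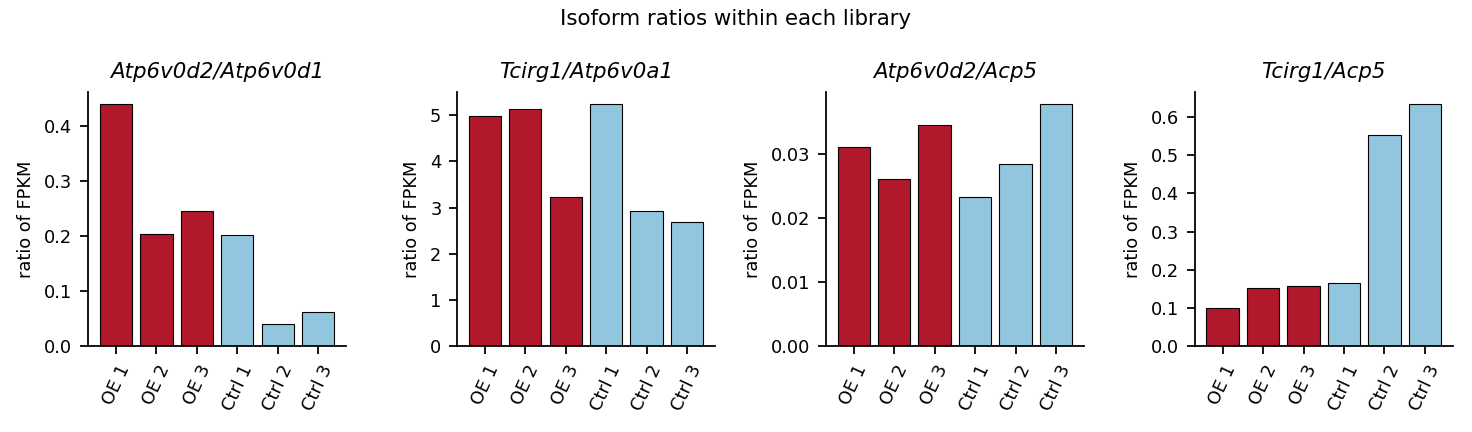
Ratio of FPKM of 2 genes within each library (red, OE; blue, Ctrl; 1 bar per library, axes from 0). Atp6v0d2 over Atp6v0d1 is 0.204 to 0.439 in OE and 0.0408 to 0.202 in Ctrl, Atp6v0d2 over Acp5 overlaps between the groups, and Tcirg1 over Acp5 is lower in every OE library.

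The a subunit of V0 lines the path of the protons and directs the pump to its membrane. Tcirg1 (chr19:3896050-3907133, minus strand), its osteoclast form, was at 121, 118 and 72.0 FPKM in OE, against 147, 88.9 and 90.7 FPKM in the libraries labelled Ctrl. The highest library was the one labelled Ctrl 1 and the lowest was OE 3, and the groups overlapped. The means were 103 ± 27.3 FPKM in OE and 109 ± 33.3 FPKM in Ctrl (SD, n = 3 each), with a log2 difference of -0.07 (SE 0.29; limma adjusted p = 0.943). The sign turned to 0.16 without the library labelled Ctrl 1 (SE 0.27; limma adjusted p = 0.809) and to 0.024 with TPM scaling of all 6, so no direction can be given for Tcirg1. Whether it differed from Atp6v0d2 in its response was not tested.

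Tcirg1 was the most abundant a form in every library, with 73.8%, 75.4% and 65.4% of the FPKM of the 4 a paralogs in OE, against 77.8%, 66.9% and 63.6% in the libraries labelled Ctrl. Atp6v0a1, which serves synaptic vesicles and other endomembranes, was at 24.3, 22.9 and 22.2 FPKM in OE, against 28.1, 30.5 and 33.8 FPKM in the libraries labelled Ctrl. Every OE library was below every Ctrl library. The log2 difference was -0.39 (SE 0.13; limma unadjusted p = 0.020, adjusted p = 0.554), and it was -0.46 (SE 0.15; limma adjusted p = 0.185) without the library labelled Ctrl 1. It is 1 of 2 members, with Atp6ap2, whose OE libraries all lay below the Ctrl libraries, against 8.97% of all genes; 0 of the 24 tested had all OE libraries above, against 4.59%. This rests on the scaling: with trimmed mean scaling only Atp6v0a1 lay below, and with TPM scaling both overlapped, while Atp6v0d1 had every OE library below and Snx10 every one above. Atp6v0a2, the Golgi and endosome form, was at 17.4, 15.1 and 15.2 FPKM in OE, against 13.4, 13.3 and 18.0 FPKM in the libraries labelled Ctrl. Those ranges overlapped, with a log2 difference of 0.10 (SE 0.16; limma adjusted p = 0.832). Atp6v0a4, the form of kidney intercalated cells, was at 1.05, 0.539 and 0.585 FPKM in OE, against 0.459, 0.146 and 0.236 FPKM in the libraries labelled Ctrl. Its OE values were all above its Ctrl values, but it was under the filter on low values and was not tested.

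The ratio of Tcirg1 to Atp6v0a1 was 4.97, 5.14 and 3.24 in OE, against 5.24, 2.92 and 2.68 in the libraries labelled Ctrl. On the log2 scale it was 0.32 higher in OE (SE 0.37; exact two-sided permutation p = 0.4, adjusted p = 0.6), with overlapping groups. The ratio of Tcirg1 to Atp6v0a2 also overlapped, with a log2 difference of -0.17 (SE 0.39; exact permutation p = 0.7), which turned to 0.13 without the library labelled Ctrl 1. With all 6 libraries the groups thus overlapped for the ratios among a paralogs and, by a narrow margin, not for the ratio of d paralogs. For Tcirg1 to Atp6v0a1 the overlap came from the library labelled Ctrl 1. Without it every OE ratio was above Ctrl 2 and Ctrl 3, with a log2 difference of 0.62 (exact permutation p = 0.2). One ratio was not tested against the other.

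Osteoclast isoforms were set against the common subunits in each library, as the mean log2(FPKM + 1) of Tcirg1 and Atp6v0d2 minus that of 14 common subunits. The contrast was -0.78, -1.34 and -1.23 in OE, against -1.22, -2.40 and -1.96 in the libraries labelled Ctrl. The library labelled Ctrl 1 lay inside the OE range, and Ctrl 2 and Ctrl 3 lay below it. The mean was 0.74 higher in OE, 1.07 higher without the library labelled Ctrl 1 and 0.47 higher without Ctrl 2. As a score over chosen genes it is a description and carries no p-value. With all 6 libraries Atp6v0d2 had a log2 difference of 1.39 and Tcirg1 one of -0.07, so the higher contrast in OE came from Atp6v0d2.

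Of the 13 osteoclast markers tested, 9 had positive and 4 negative log2 differences (-0.26 to 1.59), with a median of 0.65, and 0 were called with all 6 libraries. Acp5, a phosphatase used to stain osteoclasts, was at 1216, 771 and 460.3 FPKM in OE, against 888, 161 and 143 FPKM in the libraries labelled Ctrl. Ctsk, the collagen-cleaving protease cathepsin K, was at 1255, 828 and 416 FPKM in OE, against 1095, 137 and 104 FPKM in the libraries labelled Ctrl. Both, like Atp6v0d2, were lowest in Ctrl 2 and Ctrl 3, and their differences with all 6 libraries were 1.46 (SE 0.74; limma adjusted p = 0.560) for Acp5 and 1.59 (SE 0.90; limma adjusted p = 0.564) for Ctsk. Summed FPKM of the 14 osteoclast markers matched, of 15 listed, was 1566 to 3983 in OE, against 3429, 1254 and 1224 in the libraries labelled Ctrl. None of them was at 0. Acp5, Ctsk and Mmp9 made up most of this sum in every library. Mmp9, which is not particular to osteoclasts, alone held 726 and 737 FPKM of it in Ctrl 2 and Ctrl 3. Without the library labelled Ctrl 1, 11 differences were positive and 2 negative, with a median of 0.89, and 3 of 13 were called, all higher in OE, against 4.25% of all genes. Among the 3, Acp5 had a difference of 2.31 (SE 0.42; limma adjusted p = 0.0340) and Ctsk one of 2.65 (SE 0.47; limma adjusted p = 0.0325). In bulk samples more cells of a type and more RNA per cell cannot be told apart, and the part of osteoclast number in the Atp6v0d2 result was not tested.

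Relative to Acp5, Atp6v0d2 did not separate the groups. The ratio was 0.0311, 0.0261 and 0.0346 in OE, against 0.0234, 0.0285 and 0.0379 in the libraries labelled Ctrl. On the log2 scale the difference was -0.08 (SE 0.28; exact two-sided permutation p = 0.9). The ratio of Tcirg1 to Acp5 was 0.0992, 0.153 and 0.156 in OE, against 0.166, 0.554 and 0.634 in the libraries labelled Ctrl. Every OE library was below every Ctrl library, with a log2 difference of -1.53 (SE 0.65; exact permutation p = 0.1, the smallest possible; adjusted p = 0.3). Mmp9, a gelatinase made by osteoclasts and by neutrophils, was at 1190.0, 1027 and 399.9 FPKM in OE, against 1145, 726 and 737 FPKM in the libraries labelled Ctrl, and so overlapped between groups as Tcirg1 did. All 13 neutrophil markers had negative differences (-0.86 to -0.20, median -0.62), 2 of them lower at an unadjusted p under 0.05, against 4.08% of all genes, and 0 called. Their summed FPKM was 61408 to 171668 in OE and 107442 to 147704 in Ctrl, with none at 0, and their part in the Mmp9 level was not tested. Tcirg1 is also expressed outside osteoclasts. The 14 monocyte and macrophage markers summed to 1318 to 1822 FPKM in OE and 1672 to 2086 FPKM in Ctrl, with none at 0. Ly6c2 alone held 666 to 1307 FPKM of this in OE and 1153 to 1515 FPKM in Ctrl. Of the 13 tested, 7 had positive and 6 negative log2 differences, with a median of 0.02. Without the library labelled Ctrl 1, 5 were positive and 8 negative, with a median of -0.19. The part of these markers in the Tcirg1 level was not tested.

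**Figure D3:**
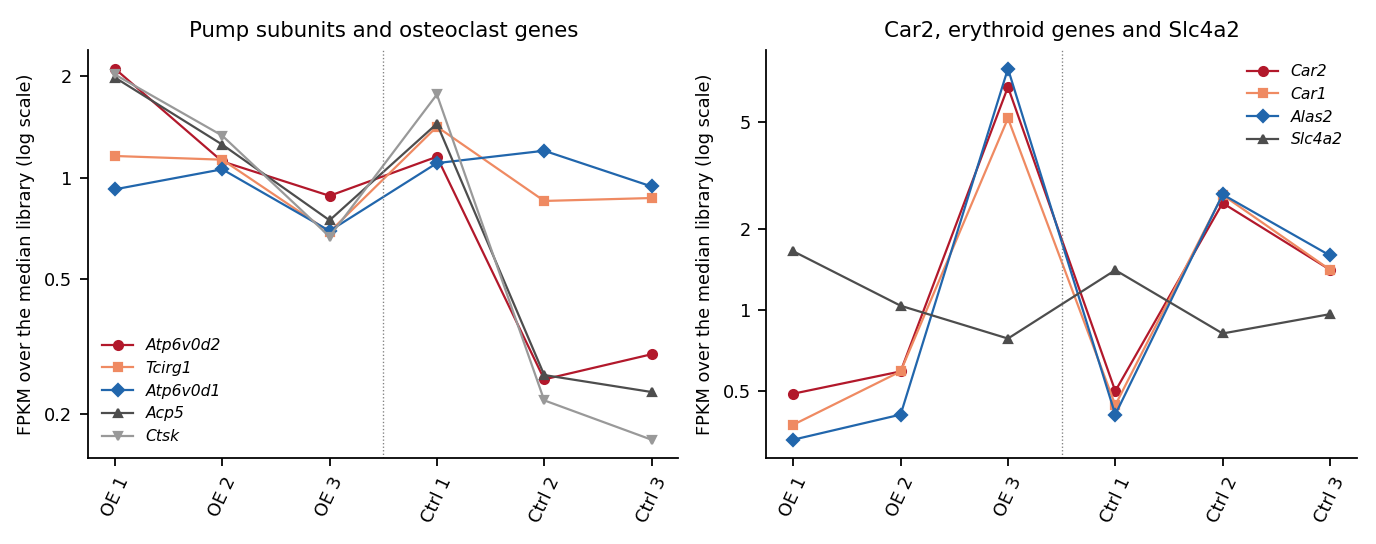
FPKM of each gene divided by its median over the 6 libraries (log scale), for each library along the horizontal axis; lines only join the points of a gene. At left, Atp6v0d2, Acp5 and Ctsk are lowest in Ctrl 2 and Ctrl 3 while Tcirg1 and Atp6v0d1 are lowest in OE 3; at right, Car2 is highest in OE 3 with Car1 and Alas2, and Slc4a2 is lowest there.

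For most of the 14 common subunits, which nearly all cells express, OE and Ctrl differed by less than the error. In OE against Ctrl, 3 had a positive and 11 a negative log2 difference, with a median of -0.05 and a range from -0.44 to 0.15, and for 11 of the 14 the difference was smaller than 1 SE. Without the library labelled Ctrl 1 the split was 9 positive and 5 negative, and 12 of the 14 changed sign in at least 1 of the alternatives tried. None was called, with or without the library labelled Ctrl 1. Their highest library exceeded their lowest by 1.41-fold to 2.19-fold, with a median of 1.75-fold, against 1.67-fold over the 11765 tested genes that were above 0 in every library. OE 3 was the lowest library for 11 of the 14, and the library labelled Ctrl 1 was the highest for 6. OE 3 is also the library with 7.45% haemoglobin. Its sum of 9 B cell markers was the highest (437 FPKM, against 54.8 to 97.6 FPKM elsewhere). Its sum of 13 neutrophil markers was the lowest (61408 FPKM, against 107442 to 171668 FPKM elsewhere). The part of these differences in the common subunits was not tested.

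In the V0 ring, Atp6v0c encodes the proteolipid that binds the protons, and Atp6v0b the c″ proteolipid beside it. Atp6v0c was at 563, 691 and 389 FPKM in OE, against 852, 656 and 519.5 FPKM in the libraries labelled Ctrl, and was the highest member in 5 of 6 libraries. The groups overlapped, with a log2 difference of -0.31 (SE 0.29; limma adjusted p = 0.696), which turned to 0.095 without the library labelled Ctrl 1 and OE 3. Atp6v0b averaged 234 ± 60.0 FPKM in OE and 237 ± 66.0 FPKM in Ctrl (SD, n = 3 each). Atp6v0e, the small e subunit at the edge of the membrane sector, averaged 189.5 ± 44.8 FPKM in OE and 170.4 ± 40.3 FPKM in Ctrl. Both pairs of means were closer than 1 SD. The alternative e form, Atp6v0e2, was at 0.924 to 1.33 FPKM in OE and 0.162 to 0.980 FPKM in Ctrl, which came to at most 0.725% of the e transcripts.

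In V1, the catalytic hexamer is built from A subunits, which hydrolyse ATP, and B subunits. Atp6v1a was at 88.4, 77.9 and 40.7 FPKM in OE, against 73.3, 66.8 and 64.0 FPKM in the libraries labelled Ctrl. OE held both the highest and the lowest value, and the means were 69.0 ± 25.0 FPKM in OE and 68.1 ± 4.77 FPKM in Ctrl (SD, n = 3 each). The B subunit came from Atp6v1b2, at 125 ± 34.5 FPKM in OE and 127 ± 27.7 FPKM in Ctrl, while the kidney and inner ear form Atp6v1b1 was at 0.0139 FPKM in OE 3 and listed at 0 in the other 5. Atp6v1d, of the central rotor, averaged 68.8 ± 14.1 FPKM in OE and 70.5 ± 13.4 FPKM in Ctrl. Atp6v1f, beside it in the rotor, averaged 123 ± 22.0 FPKM in OE and 120.3 ± 33.5 FPKM in Ctrl. For each of these 4 subunits the means lay closer than 1 SD of OE.

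The peripheral stalks hold the hexamer still and are built from E and G subunits, and the C and H subunits join V1 to V0 and govern their reversible assembly. Atp6v1e1 averaged 120.1 ± 22.9 FPKM in OE and 132 ± 22.8 FPKM in Ctrl, and Atp6v1g1 averaged 150.0 ± 32.9 FPKM in OE and 147 ± 38.6 FPKM in Ctrl (SD, n = 3 each). Atp6v1c1 averaged 40.9 ± 7.41 FPKM in OE and 42.3 ± 5.18 FPKM in Ctrl, and Atp6v1h averaged 29.3 ± 4.96 FPKM in OE and 30.3 ± 3.70 FPKM in Ctrl. All 4 pairs of means lay closer than 1 SD. The testis form Atp6v1e2 was listed at 0 in 5 libraries, Atp6v1g3 did not exceed 0.0160 FPKM, and Atp6v1c2 ran from 0.0250 to 0.496 FPKM in OE and from 0.174 to 0.322 FPKM in Ctrl. Per kilobase, the femur pump was thus read almost wholly from the widely expressed form of the B, C, E and e subunits, and the a and d subunits were those with mixed isoforms.

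The accessory proteins Atp6ap1 (Ac45), which helps assemble V0 in the endoplasmic reticulum, and Atp6ap2, also known as the prorenin receptor, gave different pictures. Atp6ap2 (chrX:12587801-12617049, plus strand) was at 93.9, 86.2 and 58.7 FPKM in OE, against 98.0, 119 and 102 FPKM in the libraries labelled Ctrl. Every OE library was below every Ctrl library, OE 1 and the library labelled Ctrl 1 being close, with a log2 difference of -0.44 (SE 0.21; limma adjusted p = 0.558). The groups overlapped with trimmed mean (-0.37) or TPM scaling (-0.34), and the difference was -0.23 without OE 3. Atp6ap1 averaged 115 ± 21.3 FPKM in OE and 116 ± 19.5 FPKM in Ctrl (SD, n = 3 each). Neither was called, and no test compared one with the other.

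**Figure D4:**
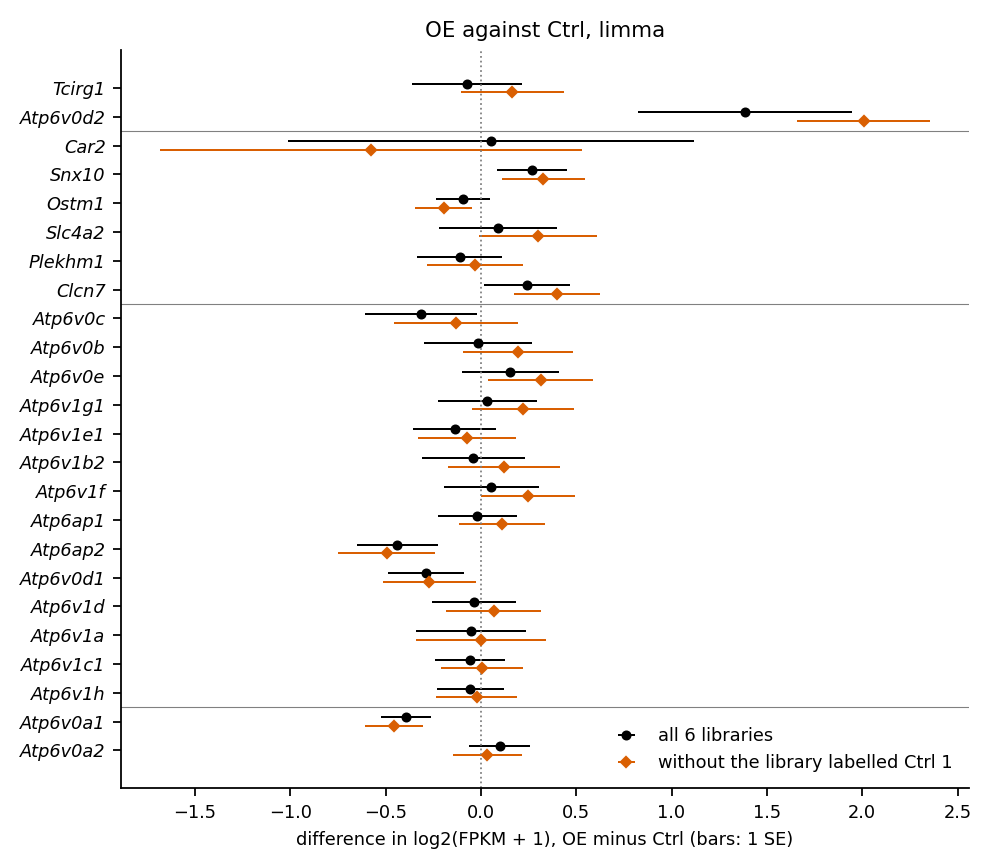
Difference in log2(FPKM + 1), OE minus Ctrl, for the 24 tested genes with bars of 1 SE, from limma with all 6 libraries (black) and without the library labelled Ctrl 1 (orange). Atp6v0d2 stands at 1.39 and 2.01, most common subunits lie within 1 SE of 0, and Car2 has the widest bars.

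Chloride follows protons into the resorption pit through ClC-7, a chloride-proton exchanger whose stability needs Ostm1. Clcn7 was at 21.8, 15.2 and 14.1 FPKM in OE, against 17.7, 11.1 and 14.0 FPKM in the libraries labelled Ctrl. The ranges overlapped, with a log2 difference of 0.24 (SE 0.23; limma adjusted p = 0.697); without the library labelled Ctrl 1, every OE library was above the other 2 and the difference was 0.40 (SE 0.23; limma adjusted p = 0.462). It was 0.061 without OE 1 and 0.085 without Ctrl 2. Ostm1 was at 25.1, 22.7 and 22.5 FPKM in OE, against 21.6, 26.8 and 27.1 FPKM in the libraries labelled Ctrl. Its difference was -0.09 (SE 0.14; limma adjusted p = 0.822), and its 1.25-fold range over libraries was the smallest of the 24 members. The differences of the 2 genes kept opposite signs in every alternative tried, and the log2 ratio of Clcn7 to Ostm1 was 0.34 higher in OE (SE 0.30; exact two-sided permutation p = 0.4). Leaving out OE 1 made that difference 0.20, leaving out Ctrl 2 made it 0.13, and leaving out the library labelled Ctrl 1 made it 0.59. In the fit without the last of these, 2 members (Atp6v0d2 and Clcn7) had every OE library above and 3 (Atp6v0a1, Atp6ap2 and Ostm1) every one below, against 18.3% and 18.6% of all genes.

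Car2, which hydrates carbon dioxide to bicarbonate and a proton, ranged over 13.8-fold. It was at 45.2, 54.7 and 622 FPKM in OE, against 46.2, 231 and 130.5 FPKM in the libraries labelled Ctrl. OE 3 exceeded every other library and overtook Atp6v0c as the highest member there, while OE 1, OE 2 and the library labelled Ctrl 1 were close together. The log2 difference was 0.05 (SE 1.06; limma adjusted p = 0.988). Without the library labelled Ctrl 1 it was -0.58 (SE 1.11; limma adjusted p = 0.840), and without OE 3 as well it was -1.78 with an adjusted p of 0.00991 by limma. Leaving out both removed the OE library with the highest Car2 and the Ctrl library with the lowest, so a lower value in OE followed from the choice.

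Red cells and their precursors also hold much carbonic anhydrase 2, and erythroid genes moved with Car2. Hbb-bs, a beta globin, was at 571, 969.5 and 20218 FPKM in OE, against 577, 3416 and 1818 FPKM in the libraries labelled Ctrl. Car1, the erythrocyte carbonic anhydrase, was at 12.1, 19.1 and 166 FPKM in OE, against 14.3, 86.4 and 45.6 FPKM in the libraries labelled Ctrl. Both genes put the 6 libraries in the same order as Car2 did; Car1 and Alas2, the erythroid form of the first enzyme of heme synthesis, drawn in the plot of profiles, were chosen after their values were seen. The 13 erythroid markers summed to 1394, 2366 and 45275 FPKM in OE, against 1737, 9966 and 4989 FPKM in the libraries labelled Ctrl, with none at 0. In the fit without the library labelled Ctrl 1 and OE 3, where Car2 was called lower, 12 of these 13 were called lower too, against 3.48% of all genes. The libraries left out held the highest OE and the lowest Ctrl values of Car2 and of the erythroid sum. Lower values in OE thus followed from that choice, and no conclusion is drawn from these calls. The part of the erythroid genes in the Car2 result was not tested.

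Slc4a2, the basolateral exchanger that releases bicarbonate for chloride, did not share the Car2 profile. It was at 38.2, 24.0 and 18.1 FPKM in OE, against 32.5, 18.9 and 22.3 FPKM in the libraries labelled Ctrl. Its lowest value was in OE 3, where Car2 was highest. The groups overlapped, with a log2 difference of 0.09 (SE 0.31; limma adjusted p = 0.931) that turned sign without OE 1 (-0.19) or Ctrl 2 (-0.07).

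Snx10 and Plekhm1 act in the vesicle traffic that builds the ruffled border, Snx10 as a sorting nexin and Plekhm1 as an adaptor of late endosomes and lysosomes. Snx10 was at 59.9, 52.3 and 39.3 FPKM in OE, against 44.7, 40.6 and 38.3 FPKM in the libraries labelled Ctrl. OE 1 and OE 2 were above all Ctrl libraries and OE 3 was among them, with a log2 difference of 0.27 (SE 0.19; limma adjusted p = 0.604). Plekhm1 was at 23.3, 18.8 and 13.5 FPKM in OE, against 22.0, 16.5 and 20.9 FPKM in the libraries labelled Ctrl. OE again held both extremes, and the difference was -0.11 (SE 0.22; limma adjusted p = 0.867), or 0.09 without OE 3. None of the 6 acid secretion partners was called with all libraries or without the library labelled Ctrl 1.

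Genes that assemble or serve the pump were read beside the members, with 0 called in each list when all 6 libraries were used. Of 12 tested genes of V-ATPase assembly and regulation, 3 had positive and 9 negative differences, with a median log2 difference of -0.09. Rogdi, a subunit of the complex that rejoins V1 to V0, was at 41.3, 56.4 and 35.7 FPKM in OE, against 71.6, 73.3 and 58.8 FPKM in the libraries labelled Ctrl. Every OE library was below every Ctrl library, with a difference of -0.62 (SE 0.20, limma unadjusted p = 0.019, adjusted p = 0.554). It was -0.58 without the library labelled Ctrl 1 (limma adjusted p = 0.303). Rogdi was the 1 of the 12 genes with all OE libraries below, against 8.97% of all genes, and its overlap under other scalings is not given here. Dmxl1, of the same complex, had a positive difference (0.54, SE 0.28; limma adjusted p = 0.561), and Ccdc115, an assembly factor of V0, had a difference of -0.33 (SE 0.20; limma adjusted p = 0.571). Of 18 tested lysosomal genes, 13 differences were negative and 5 positive, with a median of -0.09. Of all 12177 genes tested, 6861 had negative differences. Without the library labelled Ctrl 1 the lysosomal split was 9 positive and 9 negative, with a median of -0.02. With all 6 libraries the hydrolases Neu1 (-0.44, SE 0.26) and Gusb (-0.35, SE 0.21) had among the smallest p-values of the list. Their limma adjusted p were 0.570 and 0.579.

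Among 15 tested carbonic anhydrases, chloride channels and exchangers, 9 differences were positive and 6 negative, with a median of 0.13. Without the library labelled Ctrl 1, 8 were positive and 7 negative, with a median of 0.003. Car3, abundant in muscle and fat, was at 209, 166 and 130.2 FPKM in OE, against 178, 15.7 and 21.8 FPKM in the libraries labelled Ctrl. Car12, a membrane-bound carbonic anhydrase, was at 17.7, 7.16 and 8.50 FPKM in OE, against 8.36, 0.426 and 0.681 FPKM in the libraries labelled Ctrl. With all 6 libraries the differences were 2.03 for Car3 (SE 0.84) and 2.004 for Car12 (SE 0.73), both at a limma adjusted p of 0.554. In both, the library labelled Ctrl 1 stood with OE, and both were called without it (Car3 3.09, SE 0.26, adjusted p = 0.00396; Car12 2.87, SE 0.36, adjusted p = 0.0112; limma), the only 2 calls of the 15 in that fit, against 4.90% of all genes. The 9 matched muscle markers of 10 listed summed to 1481 to 1916 FPKM in OE, against 1732, 263 and 389 FPKM in the libraries labelled Ctrl, with none at 0, and their part in these calls was not tested. Car13, a cytosolic carbonic anhydrase, averaged 2.17 ± 0.286 FPKM in OE and 1.44 ± 0.198 FPKM in Ctrl (SD, n = 3 each), with a difference of 0.38 (SE 0.16; limma adjusted p = 0.554).

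Lysosomal and pump genes are known targets of Tfeb, Tfe3 and Mitf, which with Tfec make up the MiT/TFE family and bind E-boxes with the core CACGTG. Promoter windows of 300 bases, 250 before to 50 after the RefSeq start (GRCm38.p6), were at hand for 24 of the 31 members, and not for Atp6v0a2, Atp6v0d2, Atp6v1b2, Atp6v1c1, Atp6v1g1, Atp6v1h or Car2. CACGTG, which reads the same on both strands, was found in 5 of these 24 members (20.8%) and in 2187 of 27025 genes with a window (8.09%). The longer core TCACGTG, searched on both strands and always overlapping a CACGTG, was in the same 5 members (20.8%) and in 1160 genes (4.29%). The stretches around these matches are shown because they are the sequence feature that pump genes are known for; capitals mark CACGTG.
Atp6v0b, chr4:117887330-117887389, minus strand: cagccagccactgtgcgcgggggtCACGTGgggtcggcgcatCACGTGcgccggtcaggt
Atp6v0d1, chr8:105566053-105566124, minus strand: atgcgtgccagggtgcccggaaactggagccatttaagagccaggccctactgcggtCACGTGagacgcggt
Atp6v0e, chr17:26676336-26676407, plus strand: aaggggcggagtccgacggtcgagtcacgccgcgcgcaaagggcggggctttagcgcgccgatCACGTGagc
Atp6v1a, chr16:44139360-44139419, minus strand: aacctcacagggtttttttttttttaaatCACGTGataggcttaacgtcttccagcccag
Clcn7, chr17:25133331-25133390, plus strand: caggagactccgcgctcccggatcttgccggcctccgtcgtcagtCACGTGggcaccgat

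Atp6v0b held 2 copies, their first bases at -36 and -18, where the start is base 1 and the base before it -1. Clcn7 also held 2, at -15, which is shown, and at 8. Atp6v0d1 had 1 at -3, Atp6v0e 1 at 4 and Atp6v1a 1 at -131. These 5 genes are 4 common subunits and the chloride exchanger, and the 3 windows of Tcirg1 held no CACGTG. The AP-1 motif TGANTCA, which also reads the same on both strands and is bound by Fos and Jun, which osteoclasts need to form, was in 2 of 24 members (8.33%), Atp6v0a1 and Snx10, and in 8.97% of all genes. The Snx10 stretch is shown as the only match in an acid secretion partner; capitals mark the motif.
Snx10, chr6:51523954-51524013, plus strand: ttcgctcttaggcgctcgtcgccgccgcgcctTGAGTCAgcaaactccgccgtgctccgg

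TATAAA, searched on the gene's strand only, was in 1 member, Atp6v1e1 (4.17%), and in 9.77% of all genes. A match is a description of the letters, and no match says only that they are absent from this window.

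Of the 4 MiT/TFE factors, Mitf had the lowest FPKM in every library. It was at 2.36, 2.12 and 1.85 FPKM in OE, against 1.53, 1.38 and 1.51 FPKM in the libraries labelled Ctrl. Every OE library was above every Ctrl library, the library labelled Ctrl 1 among them, with a log2 difference of 0.33 (SE 0.15, limma adjusted p = 0.554). Mitf was the 1 of these 4 factors with that pattern, against 4.59% of all genes. Its values were not far above the filter of 1 FPKM, and its overlap under other scalings is not given here. Tfeb averaged 19.6 ± 2.93 FPKM in OE and 23.7 ± 3.18 FPKM in Ctrl, and Tfec 21.5 ± 7.97 FPKM in OE and 25.7 ± 3.66 FPKM in Ctrl (SD, n = 3 each). Tfe3 averaged 20.1 ± 4.70 FPKM in OE and 22.1 ± 3.06 FPKM in Ctrl. Their differences were -0.26 (SE 0.17), -0.30 (SE 0.27) and -0.15 (SE 0.20) in the order Tfeb, Tfec and Tfe3, and none of the 4 was called.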

How the data were processed

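RNA-seq of 6 femur samples was deposited by the authors as FPKM per gene, per the file headers; no counts were used here, and the submitters' processing notes name TopHat2, Cufflinks, DESeq and mm10. Groups came from the sample titles. FPKM divides by length and by mapped fragments, so a few abundant genes lower all others in a library; treatment of reads shared between paralogs is not given in the sources used here. Totals of FPKM were 596413 to 775942; absolute depth is unknown, and relative depth, read from the steps of low values, spanned 1 to 1.18.

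Ensembl identifiers were matched to GENCODE M21 symbols on GRCm38 (21172 of 22824 rows). The 12177 genes that reached 1 FPKM in 3 or more libraries were compared as log2(FPKM + 1) with limma 3.58.1 in R 4.3.3 (trended variance, Benjamini-Hochberg over all genes, threshold 0.05). A fold on this scale understates the change of low genes. Isoform log2 ratios, (a + 1) over (b + 1), used exact two-sided permutation tests. Scripts ran in Python 3.11.15 with pandas 2.3.3, and the fit was tested on simulated data beforehand. Members and gene lists were chosen with earlier results of these data known. Named genes are all members, Wnt7b, Acp5, Ctsk, Mmp9 and the 3 genes with the smallest p of each pathway list and of the osteoclast, macrophage and erythroid lists; 1 of these is not reported here, and Tfe3, Car1 and Alas2 were added after their values were seen. The last were Tnfrsf11a, Acp5 and Dcstamp for osteoclasts, Ly6c2, Adgre1 and Mpeg1 for macrophages, and Epor, Hbb-bs and Kel for erythroid cells. Alternatives were other scalings, filters and pseudocounts, leaving out libraries, and a replicate block.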

Additional observations from a re-analysis of the deposited data

How the results depend on the processing

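With all 6 libraries, 0 genes and 0 members were called under every scaling, filter and pseudocount tried. Leaving out 1 library gave 0 to 597 called genes and 0 to 1 called members, the upper values being without the library labelled Ctrl 1. Without that library, trimmed mean scaling called 522 genes and 1 member and TPM scaling 345 genes and 0 members; without OE 3 as well, 1388 genes and 2 members, with a median member difference of 0.25.

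Scaling moved the median of all genes from -0.04 to at most 0.04, and 16 of 24 members, among them 12 of 14 common subunits, changed sign in at least 1 setting; those that never did were Atp6ap2, Atp6v0a1, Atp6v0a2, Atp6v0d1, Atp6v0d2, Clcn7, Ostm1 and Snx10. Tcirg1 turned to 0.024 with TPM scaling, 0.025 with scaling outside the marrow and muscle lists, 0.23 without the library labelled Ctrl 1 with either scaling, 0.40 without OE 3 as well, and -0.20 to 0.17 leaving out 1 library. Car2 turned to -0.51 without the library labelled Ctrl 1 with either scaling (-0.508 and -0.513), -1.78 without OE 3 as well, and ran from -1.15 to 0.72 leaving out 1 library. Plekhm1 turned to 0.032 and 0.029 in those scalings and 0.17 without both libraries (-0.29 to 0.09 leaving out 1), and Atp6v0c to 0.095 without both. Slc4a2 ran from -0.19 to 0.33 leaving out 1 library, and was 0.37 in each of those scalings and 0.54 without both libraries. The ratio of Tcirg1 to Atp6v0a2 turned to 0.135 and 0.133 in those scalings and 0.34 without both (-0.41 to 0.13 leaving out 1), and that of Atp6v0d2 to Acp5 to 0.038 with a pseudocount of 0.1 (-0.30 to 0.13). The cause was not tested. The contrast of osteoclast isoforms with common subunits stayed between 0.47 and 1.07 leaving out 1 library. With all libraries it rested on Atp6v0d2 and not on Tcirg1.

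A replicate block called 0 genes and 0 members (smallest limma adjusted p = 0.191). Atp6v0d2 had that value at an unadjusted limma p of 0.0017. Benjamini-Hochberg values can be tied between genes, so it need not have the smallest p. At an unadjusted p under 0.05 the block gave 1797 genes, against 999 without it. Deviations of libraries with the same number correlated at 0.44, 0.087 and 0.31, and OE 2 and OE 3 each correlated best with a Ctrl library of another number, so the numbers were not taken as pairs. With 3 libraries a group and unknown depth, differences of the size of the common subunits' SE could not be detected.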

Other observations

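Of the osteoclast genes, Tnfrsf11a, encoding the receptor RANK, was at 3.84, 1.75 and 1.92 FPKM in OE, against 2.03, 0.607 and 1.08 FPKM in the libraries labelled Ctrl (log2 difference 0.65, SE 0.32; limma adjusted p = 0.559). Dcstamp, needed for osteoclast fusion in mice, was at 13.7, 7.09 and 4.48 FPKM in OE, against 8.94, 1.55 and 1.51 FPKM in the libraries labelled Ctrl (1.12, SE 0.61; limma adjusted p = 0.561). The library labelled Ctrl 1 lay inside the OE range in both. Without it, the differences were 0.89 (limma adjusted p = 0.187) and 1.78 (limma adjusted p = 0.0629), neither called.

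Of 13 macrophage markers tested, 7 had positive and 6 negative differences, with a median of 0.02 (5 and 8 without the library labelled Ctrl 1, median -0.19). The 3 with the smallest p, Ly6c2, Adgre1 and Mpeg1, had negative differences (-0.52, -0.31 and -0.21; limma adjusted p = 0.566 to 0.742), and none was called. The erythroid genes Epor, Hbb-bs and Kel had differences of -0.45, 0.55 and 0.34 with SE of 0.81, 1.37 and 1.06, each smaller than its SE.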
